A study of Homo sapiens with 12 samples.

Results

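Interferon-stimulated genes, the genes that cells switch on when interferon binds its receptors, were followed in MDA-MB-231, a human breast cancer line long kept in culture and classed as triple-negative (without estrogen, progesterone or HER2 receptors). The 44 genes were taken by name from the symbol column of the deposited count table, which holds 60234 genes, and each of the 44 names matched 1 row. RNA sequencing had compared fast cells, captured from the line according to their trajectory, with the parental line. Each population was sequenced as 3 libraries in each of 2 batches, 12 libraries in all. The fast libraries of batch 1 and of batch 2 and the parental libraries of batch 1 and of batch 2 are the 4 groups used here. All of them were cultured MDA-MB-231 cells with no named drug, allele or vector, and capture was the only treatment in the labels. The labels call the libraries technical replicates and speak of 2 biological replicates. They leave unsaid whether these are the batches or the populations, and whether each batch had its own capture or culture. The p-values therefore measure the spread between these libraries, which may be technical.

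Interferons are secreted proteins that bind cell-surface receptors and activate the kinases JAK1 and TYK2. These phosphorylate STAT proteins such as STAT2, which acts with IRF9 in a complex that binds a DNA element called the interferon-stimulated response element (ISRE). The genes switched on in this way encode sensors of foreign nucleic acid, transcription factors that carry the signal on, and effectors that block viral entry, translation, replication or release. Many tumour cell lines keep part of this programme on without added interferon.

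Promoter sequences are printed for members with large changes, to show where letters matching the core of the ISRE, through which many such genes are known to respond, were or were not found. Of the 44 genes, 35 had an entry in the RefSeq promoter table of GRCh38.p14, which covers 250 bases before to 50 bases after each transcription start. The lines below give the 200 bases before the start, 5′ to 3′ on the gene's own strand, for members that changed in either direction: IFIT1 and IFIT3, which were higher in fast cells, and OAS1, OAS3, BST2 and IFITM1, which were lower. Capitals mark each match to the core of the ISRE, which is GAAA and GAAA with any 2 bases between them, on either strand. A match on the opposite strand reads as TTTC and TTTC with 2 bases between them.
IFIT1, chr10:89392423-89392622, plus strand: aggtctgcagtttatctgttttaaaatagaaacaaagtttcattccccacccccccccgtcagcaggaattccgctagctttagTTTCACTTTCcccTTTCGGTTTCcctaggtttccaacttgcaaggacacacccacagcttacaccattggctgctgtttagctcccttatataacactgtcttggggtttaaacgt
IFIT3 start 1, chr10:89327797-89327996, plus strand: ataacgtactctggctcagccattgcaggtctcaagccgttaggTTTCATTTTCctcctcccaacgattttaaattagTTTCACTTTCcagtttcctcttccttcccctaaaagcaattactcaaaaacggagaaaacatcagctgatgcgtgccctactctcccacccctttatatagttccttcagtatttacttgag
IFIT3 start 2, chr10:89332329-89332528, plus strand: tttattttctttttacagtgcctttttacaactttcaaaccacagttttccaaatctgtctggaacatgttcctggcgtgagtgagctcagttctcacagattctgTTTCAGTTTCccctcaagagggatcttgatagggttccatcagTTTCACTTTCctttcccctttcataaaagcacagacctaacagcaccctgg
OAS1, chr12:112906762-112906961, plus strand: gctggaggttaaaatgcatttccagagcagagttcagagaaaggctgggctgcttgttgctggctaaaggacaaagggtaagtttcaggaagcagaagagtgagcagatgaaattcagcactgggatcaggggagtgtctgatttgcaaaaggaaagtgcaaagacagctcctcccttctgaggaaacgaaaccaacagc
OAS3, chr12:112938274-112938473, plus strand: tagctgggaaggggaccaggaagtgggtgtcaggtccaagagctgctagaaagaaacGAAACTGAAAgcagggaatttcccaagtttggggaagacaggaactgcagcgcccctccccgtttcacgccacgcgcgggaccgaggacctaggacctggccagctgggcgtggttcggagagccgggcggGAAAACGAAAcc
BST2, chr19:17405631-17405830, minus strand: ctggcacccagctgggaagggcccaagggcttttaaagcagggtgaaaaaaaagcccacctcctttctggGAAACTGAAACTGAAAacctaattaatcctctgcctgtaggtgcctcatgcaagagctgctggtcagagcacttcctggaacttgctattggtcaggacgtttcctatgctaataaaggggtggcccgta
IFITM1, chr11:313840-314039, plus strand: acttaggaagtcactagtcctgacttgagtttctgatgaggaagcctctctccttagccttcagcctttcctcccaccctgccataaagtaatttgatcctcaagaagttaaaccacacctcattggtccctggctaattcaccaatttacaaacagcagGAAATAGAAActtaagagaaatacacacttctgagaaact

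The window of IFIT1 held 2 matches, starting 116 and 103 bases before the start site. Both annotated starts of IFIT3 had 2 matches. In BST2 the 2 matches overlapped and started 130 and 124 bases before the start. OAS3 had 1 match at 143 and 1 at 12 bases before the start, and IFITM1 had 1 at 40 and another that began 6 bases before the start and ran across it, so that only the one at 40 is shown in capitals. The OAS1 window had no match to these letters. Near the end of its printed sequence GAAA and GAAA stand with 1 base between them, a spacing that the pattern does not cover. The lack of a match therefore does not show that OAS1 lacks the element. Across the members, 25 of 35 (71.4%) had at least 1 match in the full window, against 1195 of 27305 genes in the table (4.38%). The core was present in 7 of the 11 members with a promoter entry that were higher in fast cells in both batches and in 9 of the 12 that were lower in both. It was also present in 9 of the other 12. The core of the gamma-activated site (GAS), an element known from interferon gamma responses, is TTC and GAA with any 3 bases between them and was found in 10 of 35 members (28.6%) and in 9.38% of all genes. Overlapping matches were counted separately, and a match is a description of the letters only.

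**Figure D1:**
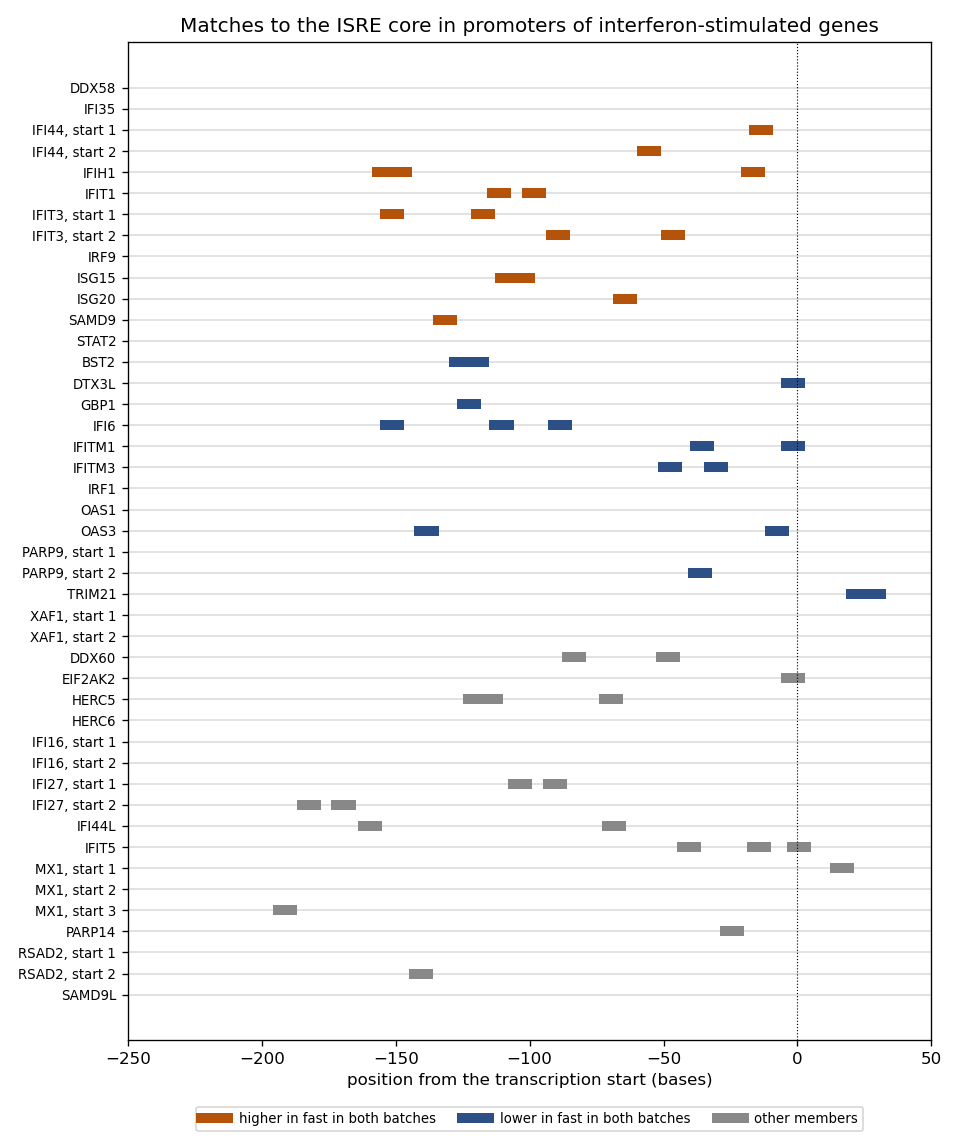
Matches to the ISRE core in the promoters of 35 interferon-stimulated genes, by distance in bases from the transcription start (dotted line). Each row is 1 annotated start, each bar 1 match of 10 bases, and the colours give the call for fast against parental cells. Bars are present among members that were higher (7 of 11), lower (9 of 12) and called in neither or only 1 batch (9 of 12).

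Total counts ran from 53267145 to 75944907 per library. Mitochondrial genes took 2.08 to 3.41% of the counts and reached their highest share in the fast libraries of batch 2 (2.72 to 3.41%). Levels are CPM, counts relative to library size, after TMM scaling, which sets each library's effective size from the bulk of its genes. A gene was called at an adjusted p under 0.05 in edgeR's quasi-likelihood test, over 22668 genes that passed the filter on low counts. All 44 members passed that filter. Interferon ligands were checked with the members: 20 of 21 listed ligand genes had 0 counts in all 12 libraries, and IFNL1 had 4 counts in all, at most 2 in a library. A count of 0 allows up to 3 counts, or 0.0395 to 0.0563 CPM depending on the library, if each count is an independent read, and covers counting error only. Of the counts from 1 to 5, 60.1 to 68.6% per library were even numbers. The sources used here do not say whether both reads of a pair were counted, and if they were, the limit is 6 counts, or 0.079 to 0.113 CPM. VIM, a mesenchymal marker of the line, was at 5050 CPM in parental and 6910 CPM in fast libraries, while ESR1 and CDH1 were at or below 0.139 CPM. Of the 5 listed markers of the line (VIM, CDH1, ESR1, PGR and ERBB2), 1 was below 0.1 CPM. Levels of PGR and ERBB2 are not given, so the receptor class of the line was not tested here.

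Fast and parental cells differed in most members, and the members went both ways. In both batches separately, 14 of 44 members were higher in fast cells (31.8%, against 23.0% of all genes tested) and 16 were lower (36.4%, against 23.0%). In batch 1 alone, 15 were higher (34.1%, against 29.0%) and 17 lower (38.6%, against 27.1%). In batch 2 alone, 16 were higher (36.4%, against 27.4%) and 18 lower (40.9%, against 28.6%). The members higher in both batches were the RNA sensors IFIH1 and DDX58, the transcription factors STAT2, IRF7 and IRF9, IFIT1, IFIT2, IFIT3, OASL, ISG20, ISG15, SAMD9, IFI35 and IFI44. Those lower in both were IRF1, OAS1, OAS2, OAS3, GBP1, GBP2, BST2, IFITM1, IFITM2, IFITM3, PARP9, DTX3L, TRIM21, TRIM22, IFI6 and XAF1. With edgeR 0 members were called higher in one batch and lower in the other, 0 also at an unadjusted p under 0.05, and 0 in any of 18 alternatives, which included DESeq2 and limma-voom. All fast libraries lay above all parental libraries of their batch in both batches for 15 members (against 24.1% of all genes tested) and below them for 13 (against 23.8%).

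The median log2 fold change of the 44 members, fast over parental over both batches, was -0.01, beside 0.01 over all genes tested. Their median absolute log2 fold change was 0.63, beside 0.32 over all genes. Log2 fold changes in batch 1 and batch 2, which share no library, had a Pearson r of 0.94 across the 44 members, beside 0.96 across 16190 genes with a mean of at least 1 CPM. Genes are not independent replicates, and the r is given as a description. With an absolute log2 fold change of at least 0.58 also required in each batch, 9 members were higher in both batches (against 6.67% of all genes) and 8 lower (against 9.28%).

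**Figure D2:**
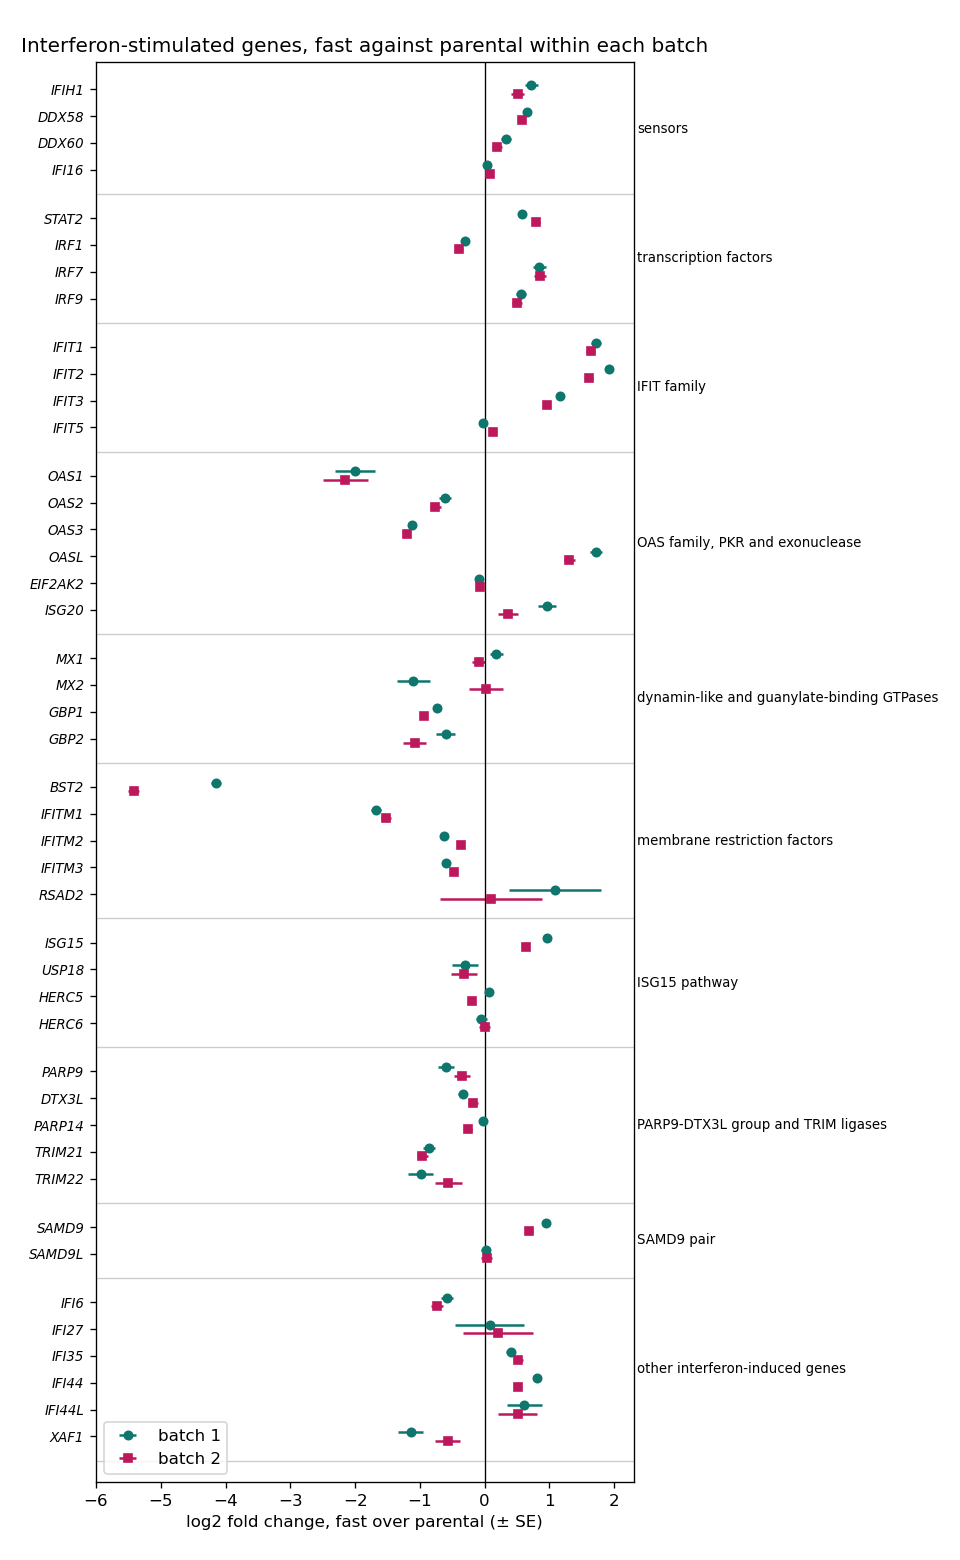
Log2 fold change (fast over parental, ± SE) of each of the 44 interferon-stimulated genes in batch 1 (circles) and batch 2 (squares), grouped by role. Within each batch IFIT1, IFIT2, IFIT3 and OASL lie farthest to the right, at 1.17 to 1.92 in batch 1 and 0.96 to 1.64 in batch 2, and BST2 farthest to the left, at -4.15 and -5.42.

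The largest rises were in IFIT1, IFIT2, IFIT3 and OASL. IFIT1 encodes a protein that binds viral RNA lacking the host's cap methylation. It was at 12.7, 12.3 and 13.6 CPM in the parental libraries of batch 1, at 7.27, 8.84 and 8.65 CPM in those of batch 2, at 43.2, 39.9 and 44.5 CPM in the fast libraries of batch 1, and at 26.0, 24.0 and 27.3 CPM in those of batch 2. Every fast library lay above every parental library, also across batches. IFIT1 was 3.21-fold higher in fast cells over both batches (log2 1.68 ± 0.05 SE, adjusted p = 9.44e-25).

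IFIT2, a partner of IFIT1 that also binds RNA, was at 22.4, 19.6 and 19.2 CPM in parental batch 1, at 13.3, 14.1 and 13.3 CPM in parental batch 2, at 81.4, 73.1 and 76.7 CPM in fast batch 1 and at 41.5, 40.3 and 42.7 CPM in fast batch 2. IFIT3, which stabilises IFIT1, was at 58.1, 55.4 and 51.5 CPM in parental batch 1, at 47.0, 46.1 and 45.4 CPM in parental batch 2, at 126, 117 and 127 CPM in fast batch 1 and at 89.7, 87.1 and 92.5 CPM in fast batch 2. The fast libraries of both genes stood above all parental libraries. The change was 3.42-fold for IFIT2 (log2 1.77 ± 0.05 SE, adjusted p = 1.84e-20) and 2.09-fold for IFIT3 (log2 1.06 ± 0.04 SE, adjusted p = 2.16e-21). IFIT5, the fourth family member at the same locus, was at 35.0 CPM in parental and 36.3 CPM in fast cells. Its log2 fold changes in batches 1 and 2 were -0.02 (adjusted p = 0.786) and 0.13 (adjusted p = 0.0201). Over both batches IFIT5 was not called (adjusted p = 0.197), except without parental batch 1 replicate 1 (adjusted p = 0.0452).

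OASL belongs to the oligoadenylate synthetase family by sequence but lacks the enzyme activity and is known to enhance RIG-I signalling. It was at 6.33, 6.47 and 6.42 CPM in parental batch 1, at 3.88, 3.34 and 4.55 CPM in parental batch 2, at 22.3, 19.9 and 21.3 CPM in fast batch 1 and at 10, 10.1 and 9.02 CPM in fast batch 2. The populations did not overlap, and the fast libraries of batch 1 stood well above those of batch 2. OASL was 2.89-fold higher in fast cells (log2 1.53 ± 0.08 SE, adjusted p = 3.34e-18).

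The enzymes of the same family fell. OAS1, OAS2 and OAS3 make the oligoadenylate messenger that activates RNase L when they bind viral RNA. OAS1 was at 1.26, 0.977 and 1.30 CPM in parental batch 1, at 0.540, 0.636 and 0.840 CPM in parental batch 2, at 0.336, 0.238 and 0.309 CPM in fast batch 1 and at 0.160, 0.143 and 0.149 CPM in fast batch 2. It was 4.18-fold lower in fast cells (log2 -2.06 ± 0.23 SE, adjusted p = 7.33e-10), at low counts: 219 reads over the 3 parental libraries of batch 1 and 32 over the 3 fast libraries of batch 2. OAS3 was at 64.3, 65.6 and 59.8 CPM in parental batch 1, at 56.1, 54.6 and 53.5 CPM in parental batch 2, at 27.1, 30.6 and 29.2 CPM in fast batch 1 and at 23.1, 24.1 and 24.3 CPM in fast batch 2. All fast libraries of both genes lay below all parental libraries. OAS3 was 2.24-fold lower (log2 -1.16 ± 0.04 SE, adjusted p = 4.21e-24). OAS2 fell from 11.7 to 7.35 CPM (log2 -0.61 and -0.76 in batches 1 and 2).

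BST2, or tetherin, holds budding virus particles on the cell surface, and it had the largest change of the 44 members. It was at 56.6, 59.3 and 59.3 CPM in parental batch 1 and at 51.8, 50.4 and 43.1 CPM in parental batch 2. In fast cells it was at 3.43, 3.31 and 3.12 CPM in batch 1 and at 0.878, 1.35 and 1.19 CPM in batch 2. The highest fast library was thus at 3.43 CPM and the lowest parental library at 43.1 CPM. BST2 was 17.7-fold lower in batch 1 and 42.7-fold lower in batch 2 (log2 -4.15 ± 0.08 SE and -5.42 ± 0.09 SE). When the libraries of each group were summed, which leaves 4 samples, the BST2 call was lost (log2 -4.70, adjusted p = 0.0979), while the other 7 of the 8 members described library by library kept theirs. On the sums 48.2% of all genes tested were called, and 16 members were higher and 15 lower.

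IFITM1, IFITM2 and IFITM3 are small membrane proteins that block the fusion of incoming viruses, and all 3 were lower in fast cells in both batches. IFITM1 was at 17.4, 17.8 and 16.9 CPM in parental batch 1, at 13.6, 12.6 and 12.1 CPM in parental batch 2, at 5.12, 5.57 and 5.53 CPM in fast batch 1 and at 4.63, 4.10 and 4.58 CPM in fast batch 2. No library of one population reached the range of the other. IFITM1 was 3.04-fold lower (log2 -1.60 ± 0.06 SE, adjusted p = 8.62e-22). IFITM2 fell from 43.8 to 31.1 CPM and IFITM3 from 122 to 84.1 CPM. IFITM1 and IFITM2 share 351 exonic bases on the same strand in GENCODE v29, so the division of reads between them is uncertain. RSAD2, or viperin, an enzyme that makes a chain-terminating nucleotide, was near the detection limit (0.0884 CPM in parental and 0.145 CPM in fast cells) and was not called.

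**Figure D3:**
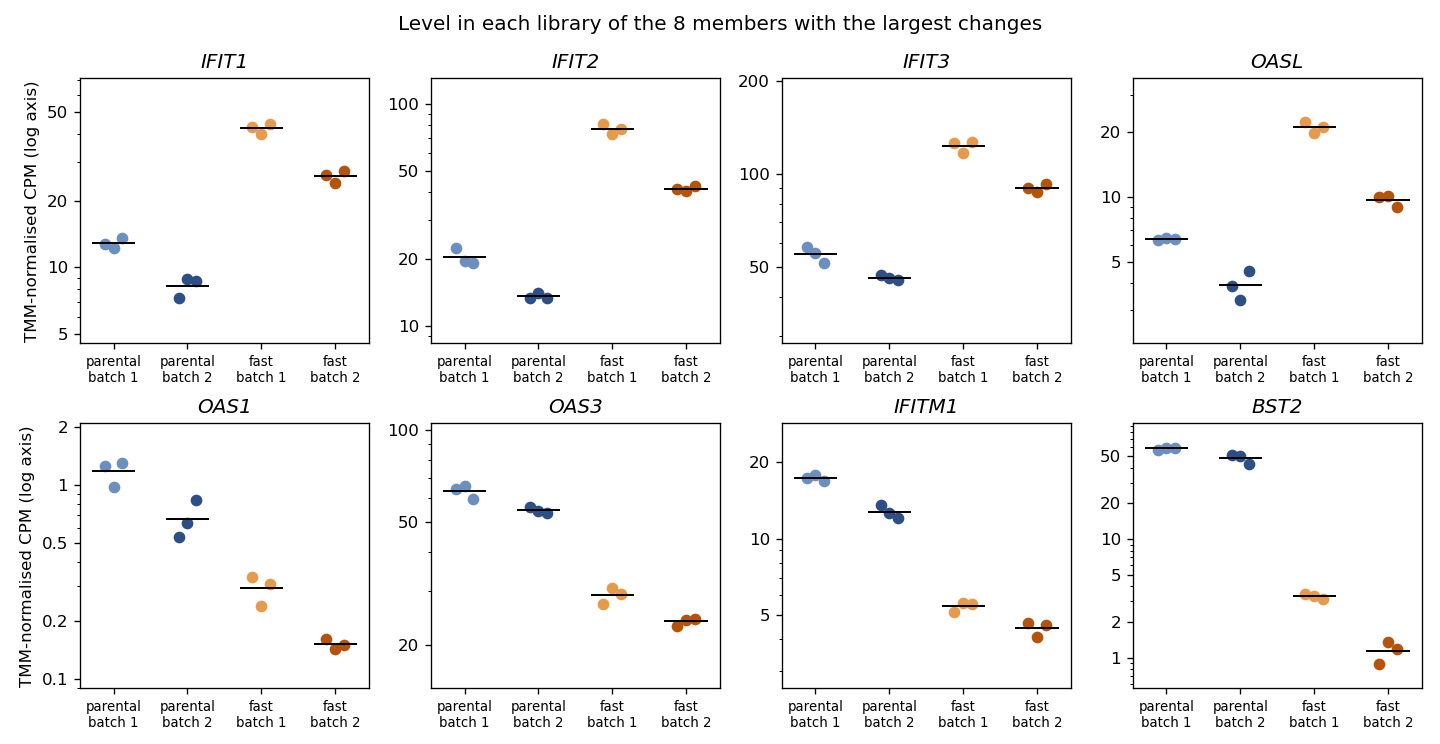
TMM-normalised CPM (log axis) of the 8 members with the largest changes, 1 point per library and a line at the mean of each group of 3. IFIT1, IFIT2, IFIT3 and OASL are higher in fast than in parental cells in both batches, and OAS1, OAS3, IFITM1 and BST2 are lower; BST2 in fast cells is at 3.12 to 3.43 CPM in batch 1 and 0.878 to 1.35 CPM in batch 2.

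Among the nucleic acid sensors, DDX58, which encodes the RNA sensor RIG-I, and IFIH1, which encodes MDA5, rose. DDX58 was at 50.3 to 53.7 CPM in parental and 80.5 to 84.3 CPM in fast libraries of batch 1, and at 42.8 to 43.3 CPM and 62.3 to 67.0 CPM in batch 2. IFIH1 rose from 6.68 ± 0.42 CPM (SD, n = 3) to 11.0 ± 0.939 CPM in batch 1 and from 4.82 ± 0.355 CPM to 6.88 ± 0.951 CPM in batch 2. The log2 fold change over both batches was 0.62 for each of these 2 genes. DDX60, a helicase related to them, was higher in batch 1 (log2 0.33, adjusted p = 0.000497) and at the threshold in batch 2 (log2 0.19, adjusted p = 0.0502). DDX60 passed in batch 2 with DESeq2 size factors or no filter, and without any 1 library of batch 1, replicates 2 and 3 of fast batch 2 or replicate 2 of parental batch 2, each in turn (0.0292 to 0.0483). IFI16, a DNA sensor, was at 81.8 CPM in parental and 85.2 CPM in fast cells. Its call in batch 2 (log2 0.09, adjusted p = 0.0475) was lost without fast batch 2 replicate 1 (0.136), with a replicate block (0.0669), with DESeq2 (0.0507) and with limma-voom (0.0529).

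Transcription factors of the pathway split. STAT2 and IRF9, which belong to the ISRE-binding complex, rose, as did IRF7, which drives further interferon production after infection. STAT2 was at 25.1 to 29.1 CPM in parental and 39.1 to 42.5 CPM in fast libraries of batch 1, and at 21.9 to 24.4 CPM and 37.6 to 42.7 CPM in batch 2. IRF7 was at 5.83 to 7.58 CPM in the parental libraries and 10.7 to 13.4 CPM in the fast libraries of both batches, without overlap. IRF9 rose from 7.71 to 11.2 CPM (log2 0.53 ± 0.06 SE). In GENCODE v29 IRF9 shares 1838 exonic bases on the same strand with a long gene model, which rose too (log2 0.29), and how reads were divided between these genes is not known. IRF1, a factor that responds mainly to interferon gamma, fell from 47.0 to 37.1 CPM (log2 -0.34 ± 0.03 SE).

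The other effectors that act on RNA or translation had less certain changes. ISG20, an exonuclease of single-stranded RNA, rose from 2.70 ± 0.506 CPM (SD, n = 3) to 5.25 ± 0.761 CPM in batch 1. In batch 2 it was at 2.50 ± 0.287 CPM and 3.20 ± 0.45 CPM, the libraries overlapped, and the call (adjusted p = 0.0358) was lost without fast batch 2 replicate 1 (0.05) or replicate 3 (0.145), without parental batch 2 replicate 2 (0.0627) or replicate 3 (0.112), and with DESeq2 (0.0722) or limma-voom (0.0533). EIF2AK2, which encodes the translation-blocking kinase PKR, was at 105 CPM in parental and 99.2 CPM in fast cells. It was called neither in batch 1 (log2 -0.08, adjusted p = 0.0665) nor in batch 2 (log2 -0.07, adjusted p = 0.163), though 9 alternatives called it in batch 1 (0.00578 to 0.0326). Its call over both batches (adjusted p = 0.0314) was lost without any 1 fast library of batch 1, replicate 3 of fast batch 2, replicates 1 and 2 of parental batch 1 or replicates 2 and 3 of parental batch 2, each in turn (0.0621 to 0.197). It was also lost with a replicate block (0.0627), on the sums (0.341) and without a batch term (0.435).

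The interferon-induced GTPases gave no rise. GBP1 and GBP2, which coat vacuoles that hold pathogens and respond strongly to interferon gamma, fell. GBP1 was at 33.1 to 37.1 CPM in the 6 parental libraries and at 18.0 to 21.5 CPM in the 6 fast libraries, without overlap. GBP2 was at 4.05 and 2.67 CPM in parental and fast cells of batch 1 and at 1.80 and 0.850 CPM in batch 2. MX1, which traps viral nucleocapsids, was at 6.15 CPM in parental and 6.50 CPM in fast cells and was not called in either batch, though it was in batch 1 without fast batch 1 replicate 1 (adjusted p = 0.0383). MX2, which blocks nuclear entry of HIV, was lower in batch 1 (log2 -1.10, adjusted p = 0.000288), where the means were 1.37 and 0.634 CPM. In batch 2 its means were 0.702 and 0.713 CPM (adjusted p = 0.968), and the difference between the batches was not called for MX2 (adjusted p = 0.0654). MX2 was called lower over both batches. That call was lost on the sums (log2 -0.54) and without parental batch 1 replicate 3 (adjusted p = 0.0788). It was also lost without fast batch 1 replicate 1 (0.0956) or replicate 3 (0.0664). The call of GBP2 over both batches was lost without a batch term (0.155).

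ISG15, a ubiquitin-like protein that is attached to other proteins, rose, and none of the 3 genes grouped with it, HERC5, HERC6 and USP18, was called higher. ISG15 was at 26.1, 28.9 and 28.3 CPM in parental batch 1 and 28.5, 28.7 and 25.4 CPM in parental batch 2, against 58.2, 53.8 and 51.4 CPM in fast batch 1 and 41.3, 42.7 and 44.4 CPM in fast batch 2. HERC5, the main ligase for ISG15, was not called in batch 1 (log2 0.06, adjusted p = 0.343) and fell in batch 2, from 43.9 to 38.2 CPM (adjusted p = 0.000477). For HERC6, a relative of HERC5, the log2 fold changes were -0.05 and 0.00 (adjusted p = 0.577 and 0.966). USP18, which removes ISG15 and also dampens the type I receptor, was at 1.59 and 1.28 CPM and missed the threshold over both batches (adjusted p = 0.0548). USP18 passed it in 6 alternatives, among them those without fast batch 1 replicate 1 (0.0227) and without fast batch 2 replicate 3 (0.0368).

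PARP9 and DTX3L, whose products form an ADP-ribosylating ubiquitin ligase, and the TRIM ubiquitin ligases were lower in both batches. TRIM21, a ligase that also binds antibodies in the cytosol, was at 10.6 to 12.0 CPM in the parental and 5.50 to 7.05 CPM in the fast libraries (log2 -0.91 ± 0.06 SE). TRIM22 fell from 3.42 to 1.71 CPM in batch 1 and from 1.39 to 0.936 CPM in batch 2. The log2 fold changes in batches 1 and 2 were -0.60 and -0.35 for PARP9 and -0.34 and -0.18 for DTX3L. PARP14, a mono-ADP-ribosyltransferase, was lower in batch 2 (log2 -0.25, adjusted p = 0.000586) and over both batches (log2 -0.14, adjusted p = 0.0125) but was not called in batch 1 (log2 -0.03, adjusted p = 0.67), and its difference between batches was not called (adjusted p = 0.156). PARP9 and DTX3L share 217 exonic bases on opposite strands, and the sources used here do not give whether counting used the strand. The call of PARP14 over both batches was lost without parental batch 2 replicate 3 (0.0527), without a batch term (0.28) and on the sums (0.187). The batch 2 calls of PARP9, TRIM22 and DTX3L were lost when some single libraries were left out, while those of TRIM21 and PARP14 were not. PARP9 lost its call when replicate 3 of the fast (0.241) or of the parental (0.116) libraries of batch 2 was left out. TRIM22 lost it without fast batch 2 replicate 3 (0.246) and when either of parental batch 2 replicates 1 and 2 was left out (0.096 and 0.0527). DTX3L lost it without any 1 of the 3 fast libraries of batch 2 (0.0806, 0.084 and 0.131) or parental batch 2 replicate 3 (0.29), and with no filter on low counts (0.0696).

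The neighbouring paralogs SAMD9 and SAMD9L, restriction factors of poxviruses, gave different calls, a difference between genes that was not tested. SAMD9 was at 24.0 to 30.1 CPM in parental libraries and 38.9 to 55.6 CPM in fast libraries, without overlap. SAMD9L was at 14.0 CPM in parental and 14.2 CPM in fast cells (log2 0.02 and 0.03 in the 2 batches, adjusted p = 0.881 and 0.808). Of the remaining members, IFI35 rose from 12.2 to 16.8 CPM and IFI44 from 16.5 to 26.5 CPM. IFI6, a membrane protein known to restrain apoptosis, fell from 13.2 to 8.38 CPM. XAF1, which promotes apoptosis by binding the inhibitor XIAP, fell from 2.91 to 1.55 CPM. The batch 2 call of XAF1 (adjusted p = 0.0117) was lost when fast batch 2 replicate 2 (0.148), fast batch 2 replicate 3 (0.0851) or parental batch 2 replicate 3 (0.144) was left out. IFI44L, at 0.536 and 0.800 CPM, was called over both batches (adjusted p = 0.0127) but not without a batch term (0.124). It was called in neither batch, except in batch 1 with limma-voom (0.0345) and without fast batch 1 replicate 3 (0.0407), parental batch 1 replicate 2 (0.0347) or parental batch 2 replicate 1 (0.0492). IFI27, at 0.193 and 0.214 CPM, was not called.

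Levels per kilobase of exon (GENCODE v29 exon lengths) compare the members with each other. In parental cells IFITM3 stood highest at 90.8 CPM per kilobase, followed by BST2 at 47.7, ISG15 at 29.4, IFITM2 at 28.4 and IFIT3 at 19.2. In fast cells IFITM3 was still highest at 62.4 CPM per kilobase, followed by ISG15 at 51.7, IFIT3 at 40.4 and IFITM2 at 20.1, while BST2 was at 1.98. The summed level of the 44 members was 1090 to 1150 CPM in parental and 1190 to 1220 CPM in fast libraries of batch 1, and 956 to 974 CPM and 960 to 980 CPM in batch 2. The populations thus overlapped in batch 2 in this sum and did not in batch 1.

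Most members were lower in batch 2 than in batch 1, in both populations. This comparison was added after the data had been seen, and the labels do not say what differed between the batches. In parental cells 31 of 44 members were lower in batch 2 (70.5%, against 14.8% of all genes tested) and 0 were higher (against 15.2%). With edgeR this count of higher members was 0 at an unadjusted p under 0.05 as well, and 0 in all 17 alternatives, DESeq2 and limma-voom among them. In fast cells 29 were lower (65.9%, against 15.7%) and 1, IFITM2, was higher (against 11.4%). The count of higher members in fast cells ran from 0 to 2 over 17 alternatives and was 0 without fast batch 1 replicate 1, fast batch 1 replicate 2 or fast batch 2 replicate 3. The members called lower in batch 2 in both populations numbered 23 (52.3%, against 7.99% of all genes). The median log2 fold change of the members, batch 2 over batch 1, was -0.26 in parental and -0.33 in fast cells, beside 0.00 and -0.02 over all genes tested. Negative values were seen in 42 of 44 members in parental and 40 of 44 in fast cells. The share of negative values over all genes was not taken.

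The count of members lower in batch 2 ran from 28 to 32 in parental and from 25 to 30 in fast cells over 17 alternatives. Without fast batch 2 replicate 3, the genes called lower in fast cells dropped from 3561 to 2282 in the whole table, and 25 members were still lower. In parental cells the lowest log2 fold changes of batch 2 over batch 1 were those of TRIM22 (-1.29, beside -0.87 in fast cells) and GBP2 (-1.17). In fast cells they were those of GBP2 (-1.65) and BST2 (-1.54, beside -0.27 in parental cells). OASL had -0.71 and -1.12, and IFIT1 -0.64 and -0.72. Among the members not called between batches in either population were IFITM3, IRF7, IFI35 and TRIM21. The mitochondrial share was 2.08 to 2.91% in parental batch 1, 2.58 to 2.71% in parental batch 2, 2.09 to 2.71% in fast batch 1 and 2.72 to 3.41% in fast batch 2, and its part in the shift was not tested.

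**Figure D4:**
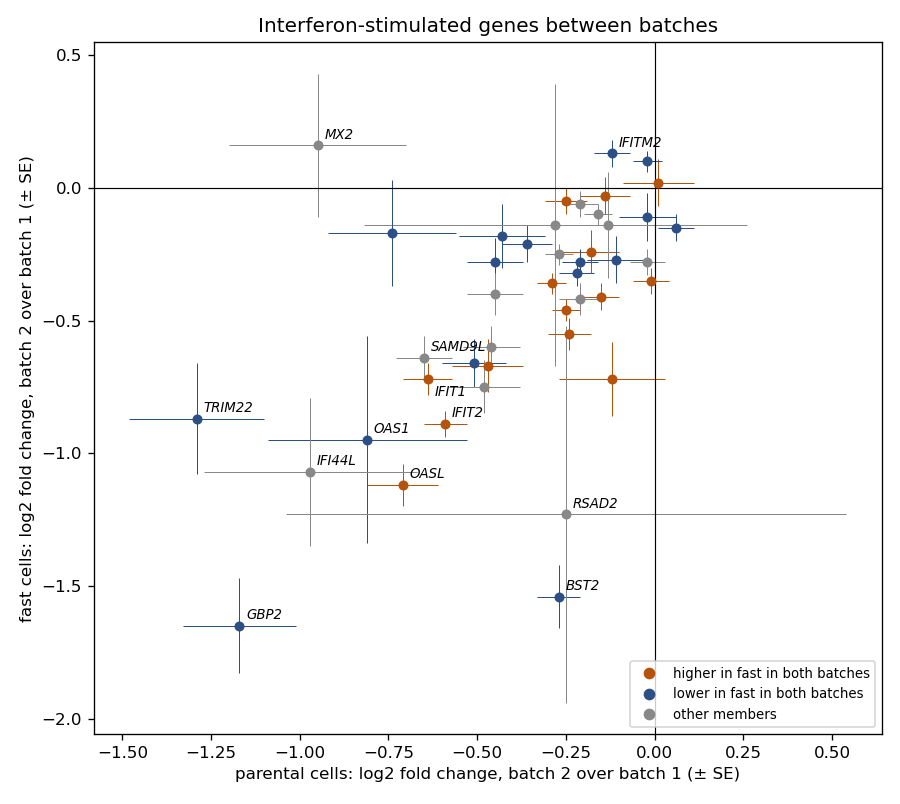
Log2 fold change of batch 2 over batch 1 (± SE) for each of the 44 interferon-stimulated genes, parental cells on the horizontal and fast cells on the vertical axis. Most points lie in the lower left: 42 of 44 are negative in parental and 40 of 44 in fast cells, and BST2 stands apart with -0.27 in parental and -1.54 in fast cells. The share of negative values over all genes was not taken.

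Whether the difference between fast and parental cells itself changed between batches was tested as an interaction. It was called for 9 of 44 members, 8 with a lower value in batch 2 (18.2%, against 3.65% of all genes tested) and 1 with a higher value (2.27%, against 1.75%). BST2 had the largest of these, with log2 fold changes of -4.15 and -5.42 in batches 1 and 2 (difference -1.27, adjusted p = 9e-09), and it was called in all 18 alternatives. IFIT2 went from 1.92 to 1.61, IFIT3 from 1.17 to 0.96, OASL from 1.72 to 1.31, ISG15 from 0.97 to 0.64, SAMD9 from 0.95 to 0.69 and IFI44 from 0.81 to 0.51, each still higher in fast cells in both batches. HERC5 went from 0.06 to -0.20. IFITM2 went the other way, from -0.62 to -0.37. The 8 members other than BST2 lost this call under 1 to 16 of the 18 alternatives.

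Upstream of the members, the ligands were at or near 0 counts, as given above, and receptors and signalling genes were expressed. These lists, like the members, were chosen with earlier results of these data known. Of 19 receptor and JAK-STAT genes, 9 were higher over both batches (against 31.9% of all genes tested), 4 lower (against 31.5%) and 6 were not called. Named here, and in the sensing and further lists below, are called genes with a mean of at least 1 CPM. They had the largest changes among such genes reported, and genes outside this limit can have larger ones. SOCS1, an inhibitor of JAK kinases, fell from 2.74 to 1.18 CPM (log2 -1.20 ± 0.13 SE). PIAS2, a SUMO ligase that restrains STAT proteins, fell from 16.4 to 8.63 CPM. SOCS3, the receptor chain IL10RB and the phosphatase PTPN2 rose, with log2 fold changes of 0.52, 0.43 and 0.42.

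Of 24 genes of nucleic acid sensing and IRF activation, 21 could be tested. Over both batches 13 were higher (61.9%, against 31.9% of all genes tested), 7 lower (33.3%, against 31.5%) and 1 was not called. DHX58, which encodes LGP2, a relative of RIG-I, rose from 1.65 to 3.11 CPM. The kinase IKBKE, which activates IRF factors, rose from 11.0 to 19.6 CPM. TMEM173, which encodes the adaptor STING of the DNA-sensing pathway, rose from 24.2 to 37.7 CPM, and NLRC5, a regulator of MHC class I genes, from 14.3 to 21.8 CPM. MAVS, the mitochondrial adaptor that RIG-I and MDA5 signal through, fell from 70.5 to 47.2 CPM. Of the 2 adaptor genes named, MAVS thus fell and TMEM173 rose. MAVS is the only one named of the 7 genes that were lower.

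A further list of 58 interferon-induced genes outside the members was mixed in the same way. Of the 53 that could be tested, 16 were higher (30.2%, against 31.9% of all genes), 22 lower (41.5%, against 31.5%) and 15 not called over both batches. The share that was higher was thus near that of all genes. SLFN5 rose from 7.42 to 16.7 CPM (log2 1.17 ± 0.06 SE). CD274, the checkpoint ligand PD-L1, fell from 33.0 to 18.9 CPM, C19orf66, a translation inhibitor known as shiftless, from 14.7 to 8.46 CPM, TRIM34 from 8.36 to 4.92 CPM and GBP4 from 2.74 to 1.72 CPM. Between batches, 18 of the 53 were lower in batch 2 in parental cells (against 14.8% of all genes) and 20 in fast cells (against 15.7%). In the same order 3 and 1 were higher, against 15.2% and 11.4%. Their median log2 fold change of batch 2 over batch 1 was -0.14 in both populations.

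Positions on the chromosomes were compared with the members' changes. For each member, the median log2 fold change over both batches of the 10 nearest tested genes on each side was taken from the gene order of GENCODE v29, leaving out other members and genes under a mean of 1 CPM. Of 35 members called over both batches, 24 had the sign of their neighbours' median. The same share was not taken over all genes, so the counts of members in this comparison are a description only. The neighbours' medians were small, with a median absolute value of 0.23, and 7 of 44 members lay within 0.25 of their neighbours. IFI6, at -0.66, lay near its neighbours at -0.80. The IFIT cluster on chromosome 10 had neighbours at 0.47, between IFIT5 at 0.06 and IFIT2 at 1.77. OAS1, OAS2 and OAS3 on chromosome 12 lay among neighbours at -0.03, and OASL, elsewhere on chromosome 12, among neighbours at -0.11. BST2 on chromosome 19 had neighbours at -0.32, and the adjacent gene MVB12A fell from 51.8 to 39.9 CPM (log2 -0.38). MVB12A was picked after the values had been seen.

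**Figure D5:**
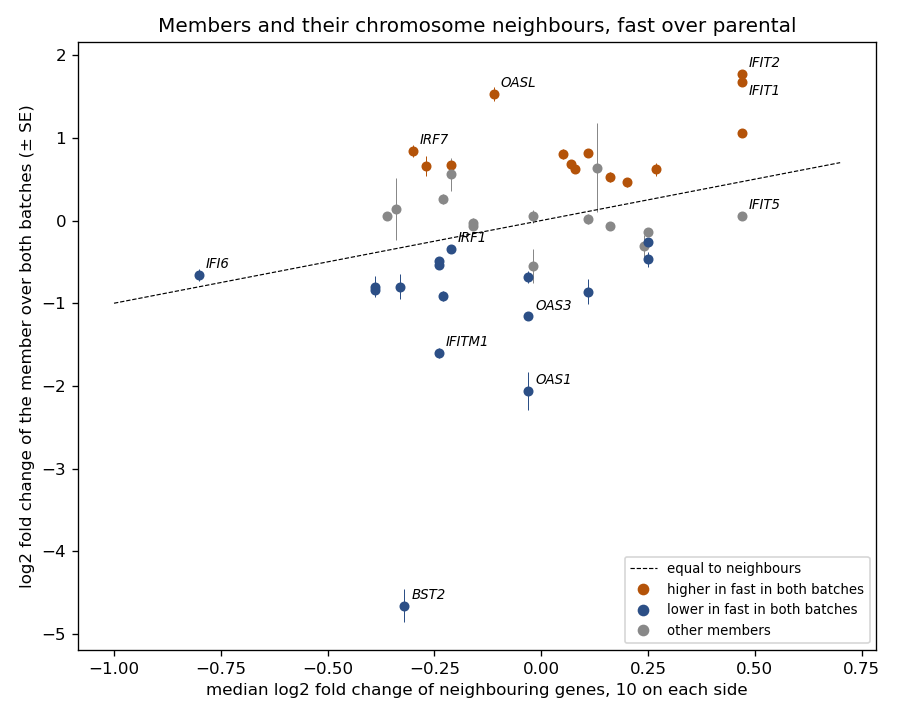
Log2 fold change of each member over both batches (± SE) against the median of its neighbouring genes on the chromosome, 10 on each side; the dashed line marks equal values. BST2 lies at -4.66 where its neighbours are at -0.32, and IFIT1 and IFIT2 lie at 1.68 and 1.77 where their neighbours are at 0.47.

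Markers of other cell types were examined because immune and stromal cells express many of these genes. Of 22 leukocyte markers, 18 were below 0.1 CPM and 9 had 0 counts in every library. Their summed level was 5.72 to 7.88 CPM in parental and 3.23 to 4.25 CPM in fast libraries, and most of it came from CD33, CD8A, CSF1R and CD14. Without these 4 it was 0.152 to 0.526 CPM and 0.0574 to 0.251 CPM. CD33 fell from 2.88 to 0.0191 CPM. Fibroblast markers, 8 of 10 of which were below 0.1 CPM, summed to 14.2 to 16.7 CPM in parental and 9.13 to 11.8 CPM in fast libraries. Endothelial markers, 7 of 8 of which were matched, summed to 15.4 to 17.5 CPM and 12.0 to 16.2 CPM. Only 3 of these 7 were below 0.1 CPM. The 4 that could be tested had a median log2 fold change of -0.98 over both batches, with a range of -1.38 to 0.34. The part of these markers in the members' changes was not tested. In bulk RNA, fewer cells with a transcript and less of it per cell cannot be told apart.

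Reads shared with other genes limit some members further. IFIT2 overlaps LIPA by 65 exonic bases on the opposite strand, and LIPA rose as well (log2 0.63). IFIT2 also shares 356 exonic bases on the same strand with RP11-149I23.3, which was at a mean of 0.74 CPM. XAF1 overlaps PRAL by 2535 exonic bases on the opposite strand, and PRAL is not in the count table. IRF1 overlaps C5orf56 by 1716 bases and EIF2AK2 overlaps GPATCH11 by 35 bases, both on opposite strands. For OAS1 the overlapping antisense gene was at 0.0888 CPM.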

How the data were processed

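The authors deposited raw counts of reads per gene for 60234 genes in 12 libraries, and per the submitters' processing notes the tools were Trimmomatic 0.32, STAR 2.3.0e and featureCounts 1.4.4 on hg19 (GRCh37). Strand and multimapping settings of the counting are not known from these sources. The counts were taken as deposited and fitted with edgeR 4.0.16 in R 4.3.3 (quasi-likelihood test, TMM scaling, filterByExpr), over all 22668 genes that passed the filter, with Benjamini-Hochberg adjustment at 0.05. One mean for each population and batch gave the comparisons within batches, between batches and the interaction. A model with batch as an added term gave the values over both batches. Total counts were 53267145 to 75944907 per library, and the errors given are from the spread between libraries. Over all genes, libraries of a group differed by more than counting noise in every pair.

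Alternatives were DESeq2 1.42.0 size factors and its Wald test, limma-voom (limma 3.58.1), no filter, a filter at a mean of 1 CPM, a replicate block, no batch term, sums of libraries, stricter thresholds, 25 neighbours on each side, and leaving out each of 12 libraries. The comparison between batches was added after seeing the data. Values in every library are given for members called the same way in both batches with an absolute log2 fold change of at least 1 over both batches. Other members with a called difference between batches are named with their values, and up to 5 called genes with the largest changes and a mean of at least 1 CPM are named from each further list. The 44 members and all lists were chosen with earlier results of these data known, and 1 gene of the receptor and signalling list is not reported here. Gene order, exon lengths and overlaps came from GENCODE v29 and promoters from RefSeq on GRCh38.p14, so no coordinate was carried to or from the count table, which was joined by gene identifier and symbol.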

Additional observations from a re-analysis of the deposited data

Results flagged for a closer look

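For 9 members the difference between fast and parental cells was not the same in the 2 batches, by a test of the interaction across all 22668 genes (edgeR, adjusted p under 0.05). Each value is the log2 fold change of batch 2 minus that of batch 1. BST2 had -1.27 (adjusted p = 9e-09) and was called in all 18 alternatives, with adjusted p-values of 1.8e-19 to 0.000418. Its level in parental cells was 58.4 CPM in batch 1 and 48.4 CPM in batch 2, and in fast cells 3.29 CPM and 1.14 CPM.

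The other 8 were smaller. IFIT2 had -0.31 (adjusted p = 0.00918, from 0.000836 to 0.105 over the alternatives), and its call was lost without fast batch 1 replicate 1, fast batch 2 replicate 1 or fast batch 2 replicate 2 (0.0539, 0.0639 and 0.105). ISG15 had -0.34 (adjusted p = 0.00316, from 0.00218 to 0.0538), lost without fast batch 2 replicate 1 (0.0538). IFITM2 had 0.24 (adjusted p = 0.0181, from 0.000633 to 0.0696), lost without fast batch 1 replicate 1 (0.0696). HERC5 had -0.26 (adjusted p = 0.0179, from 0.00362 to 0.171), lost without any 1 fast library of batch 2, replicate 3 of fast batch 1, replicate 2 of parental batch 1 or replicate 3 of parental batch 2 (0.0637 to 0.171) and with no filter (0.0826). IFI44 had -0.30 (adjusted p = 0.0205, from 0.0203 to 0.175), lost without replicates 1 and 3 of fast batch 1, 2 and 3 of fast batch 2, 3 of parental batch 1 and 1 and 3 of parental batch 2, each in turn (0.0557 to 0.175) and with no filter (0.119).

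SAMD9 had -0.26 (adjusted p = 0.0276, from 0.00881 to 0.258), lost in 12 of 18 alternatives, among them those without any 1 fast library of batch 2, replicates 1 and 2 of fast batch 1, 2 and 3 of parental batch 1 and 3 of parental batch 2, each in turn (0.053 to 0.258). IFIT3 had -0.21 (adjusted p = 0.024, from 0.00559 to 0.268), lost in 13, among them those without any 1 library of batch 2, replicates 1 and 3 of fast batch 1 and 3 of parental batch 1, each in turn (0.0526 to 0.268). OASL had -0.42 (adjusted p = 0.0415, from 0.00966 to 0.34), lost in 16, which took in every omission of 1 library except fast batch 1 replicate 2 and parental batch 2 replicate 2 (0.0663 to 0.34). Apart from HERC5, which was called in batch 2 alone, each of these members kept 1 direction of difference between fast and parental cells in both batches.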

How the results depend on the processing

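Of the fast-parental values of the 44 members and the interaction of the 9 members called in it, under the alternatives, 2468 kept their direction and side of the threshold, 106 lost their call, 37 gained one and 0 were reversed. Members that gained an interaction call are not among these. Leaving out 1 library gave 13 to 15 members higher and 12 to 16 lower in both batches. The interaction depended most on the setting. Its 8 members with a lower value became 5 with DESeq2 size factors, when genes under a mean of 1 CPM were dropped and with DESeq2's Wald test, 3 with no filter, and 2 to 7 when 1 library was left out. Its 1 member with a higher value became 3 with no filter and 0 to 3 when 1 library was left out. Over all genes the interaction gave 396 higher and 827 lower. The higher count ran from 299 (without fast batch 1 replicate 2) to 966 (no filter), and the lower count fell to 337 without fast batch 2 replicate 2. The cause was not tested. Members called the same way in both batches became 9 higher and 8 lower when an absolute log2 fold change of at least 0.58 was added, which removes small changes by construction. Replicate numbers did not pair the libraries: deviations of same-numbered fast and parental libraries correlated at -0.106 to 0.0933, and descriptions number some libraries differently from titles. With a replicate block the 14 higher and 16 lower members in both batches stayed 14 and 16 in number, and the calls that changed were IFI16 in batch 2, EIF2AK2 and USP18 over both batches and the interaction of OASL (adjusted p = 0.0669, 0.0627, 0.0487 and 0.0713). With 25 neighbours on each side, 23 of 35 called members had their neighbours' sign, against 24 with 10.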
